A study of Mus musculus with 18 samples.

Results

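Genes of cholesterol efflux, lipoprotein lipid handling and lipid storage were followed in microglia and macrophages of the injured spinal cord: Apoe, Apoc2, Lpl, Lipa, Nr1h3, Abca1, Abcg1, Mylip, Soat1 and Plin2. They were chosen by gene symbol with earlier results of these data known, and all 10 were found among the 53465 genes of the count file. The libraries came from 9 female C57BL/6J mice, 8 to 10 weeks old, all with a thoracic contusion (spinal cord injury, SCI) and none left uninjured. At 48 h after SCI, 3 mice received 100 ng of recombinant IL-4 (rIL-4), 3 received 100 ng of recombinant IL-13 (rIL-13) and 3 received PBS, each in 1 µL injected into the injured cord, and cells were collected 24 h later. Microglia (CD45low CD11b+ F4/80+) and macrophages (CD45high CD11b+ F4/80+) were sorted from the same mice, so that the 18 libraries formed 6 groups of 3. PBS mice were 1, 2 and 3, rIL-13 mice were 5, 6 and 7, and rIL-4 mice were 8, 9 and 10.

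Phagocytes that clear myelin debris take up large amounts of cholesterol and fatty acids, which they must export or store. LXR alpha, the nuclear receptor encoded by Nr1h3, senses oxysterols, pairs with RXR and induces a set of lipid genes. ABCA1, a transporter encoded by Abca1, loads cholesterol onto lipid-poor apolipoproteins such as apoE, and ABCG1 passes it on to formed lipoproteins. Lipoprotein lipase, from Lpl, hydrolyses triglycerides with apoC-II as its cofactor, and lysosomal acid lipase, from Lipa, frees cholesterol from ingested esters. Mylip encodes the ubiquitin ligase IDOL, which marks the LDL receptor for degradation. SOAT1 esterifies cholesterol for storage, and perilipin 2, from Plin2, coats the droplets in which lipids are stored.

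Apoe, Apoc2 and Plin2 were among the members whose RNA fell in macrophages with rIL-4, and the 250 bases that precede their start sites are shown here. Mylip also fell and had such a window, which is not shown. Apoe had 3 windows, of which the first is shown. The sequences are RefSeq's for GRCm38.p6, written 5′ to 3′ on the minus strand, on which all 3 genes lie. Capitals mark matches of the nuclear receptor half-site AGGTCA on either strand.
Apoe, chr7:19699189-19699438: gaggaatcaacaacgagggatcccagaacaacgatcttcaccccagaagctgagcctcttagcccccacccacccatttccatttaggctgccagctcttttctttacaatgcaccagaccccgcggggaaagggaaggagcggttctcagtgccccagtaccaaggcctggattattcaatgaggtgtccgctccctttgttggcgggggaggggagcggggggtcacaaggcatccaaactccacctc
Apoc2, chr7:19677942-19678191: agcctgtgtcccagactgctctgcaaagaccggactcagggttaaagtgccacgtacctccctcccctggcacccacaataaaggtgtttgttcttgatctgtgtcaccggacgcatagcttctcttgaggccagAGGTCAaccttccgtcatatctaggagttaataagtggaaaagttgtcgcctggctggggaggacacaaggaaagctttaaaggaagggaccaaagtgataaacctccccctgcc
Plin2, chr4:86670060-86670309: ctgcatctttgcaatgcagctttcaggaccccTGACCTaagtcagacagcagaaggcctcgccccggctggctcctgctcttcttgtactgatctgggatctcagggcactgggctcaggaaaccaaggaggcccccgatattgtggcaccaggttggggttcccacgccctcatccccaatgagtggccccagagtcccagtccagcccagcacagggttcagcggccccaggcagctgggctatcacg
The half-site began 115 bases before the start in Apoc2, on the strand of the gene, and 218 bases before it in Plin2, as its complement TGACCT on the opposite strand. It was not in the other 6 members found in the RefSeq table, and Lpl and Abcg1 had no entry there. Among 32851 such windows of all genes, 14% held AGGTCA. The palindrome TTCNNNNGAA, of the type that STAT6 binds, was in 5.85% of all windows, and TCACNNCAC, of the type that SREBP binds, in 3.11%. Neither set of letters was in a member's window.

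Each library held between 35961305 and 45849829 counts. These are reads after amplification without molecular identifiers, so that they do not give the number of RNA molecules sampled. The least counted member was Nr1h3, with between 210 and 2371 counts per library, and Apoe had between 78839 and 653012. For each mouse, the members with their lowest CPM of the group in that mouse were counted. The same count was not made over all genes, so that it does not set the lipid genes apart from others. Among the 3 rIL-13 mice, mouse 6 gave the lowest CPM for 9 of the 10 members in macrophages and for 9 in microglia. Mouse 9 did so among the 3 rIL-4 mice for 8 members in macrophages and 7 in microglia. Of the PBS mice, none was lowest for more than 5 members. Macrophages of mouse 6 also had the highest sum over 8 neutrophil markers, 2954 CPM against 414 and 473 in the other rIL-13 macrophages. Its microglia had the highest sum over 8 fibroblast and pericyte markers, 8080 CPM, where the other microglia had between 217 and 3549 CPM and no macrophage library exceeded 9.64 CPM.

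The sum over 8 microglia markers separated the sorted cell types within each treatment. With PBS it was between 5458 and 9791 CPM in microglia and between 2619 and 3737 CPM in macrophages, with rIL-13 between 2548 and 6564 and between 1065 and 2262, and with rIL-4 between 2384 and 4085 and between 465 and 850. All 8 markers were found in every group, so that macrophages were not free of microglial RNA. Over 8 markers of monocyte-derived macrophages, the sum in sorted macrophages was between 1995 and 2573 CPM with PBS, 4910 and 8395 with rIL-13, and 6132 and 7832 with rIL-4. This sum followed Fn1, whose mean was 1364 CPM with PBS, 4803 with rIL-13 and 5567 with rIL-4; 2 of the 8 markers, Fn1 and F10, were above PBS in all libraries of either cytokine, and with rIL-4 the means of 4 of the 8 were lower. Marker sums of other cell types were lower in level but also differed in rIL-4 macrophages, with endothelial markers between 51.3 and 65.4 CPM with PBS and 238 and 438 with rIL-4, astrocyte markers between 26.2 and 31.6 and between 67.7 and 512, and oligodendrocyte markers between 181 and 211 and between 129 and 140. With rIL-13, these sums were between 152 and 221, 66.2 and 408, and 134 and 147 CPM. The endothelial and astrocyte lists did not move as a whole. Of the endothelial markers, 2 of 8 lay above PBS in all rIL-4 macrophages, led by Pecam1 with means of 8.49 and 222 CPM, and 4 lay below, among them Kdr with 30.5 and 6.22 CPM. Of the astrocyte markers 1 lay above, Gja1, with means of 6.23 and 236 CPM, and 1 below, and of the oligodendrocyte markers 4 lay below and 0 above. Neutrophil markers summed to between 741 and 1399 CPM in PBS macrophages and between 170 and 749 CPM in rIL-4 macrophages, where 3 of 8 lay below PBS. In microglia, fibroblast and pericyte markers summed to between 2366 and 3549 CPM with PBS and to between 217 and 1547 CPM with rIL-4, and endothelial markers to between 945 and 2031 CPM and between 2199 and 2768 CPM. Over the 8 markers of monocyte-derived macrophages, microglia summed to between 685 and 834 CPM with PBS, 715 and 993 with rIL-13, and 923 and 1696 with rIL-4. With either cytokine, 2 of these 8 lay above PBS in all microglia libraries and the means of 2 were lower. Both sorted populations thus differed between treatments in their marker sums, and the part of these sums in the responses of the lipid genes was not tested. In sorted bulk samples, fewer cells of a type and less RNA per cell cannot be told apart.

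**Figure D1:**
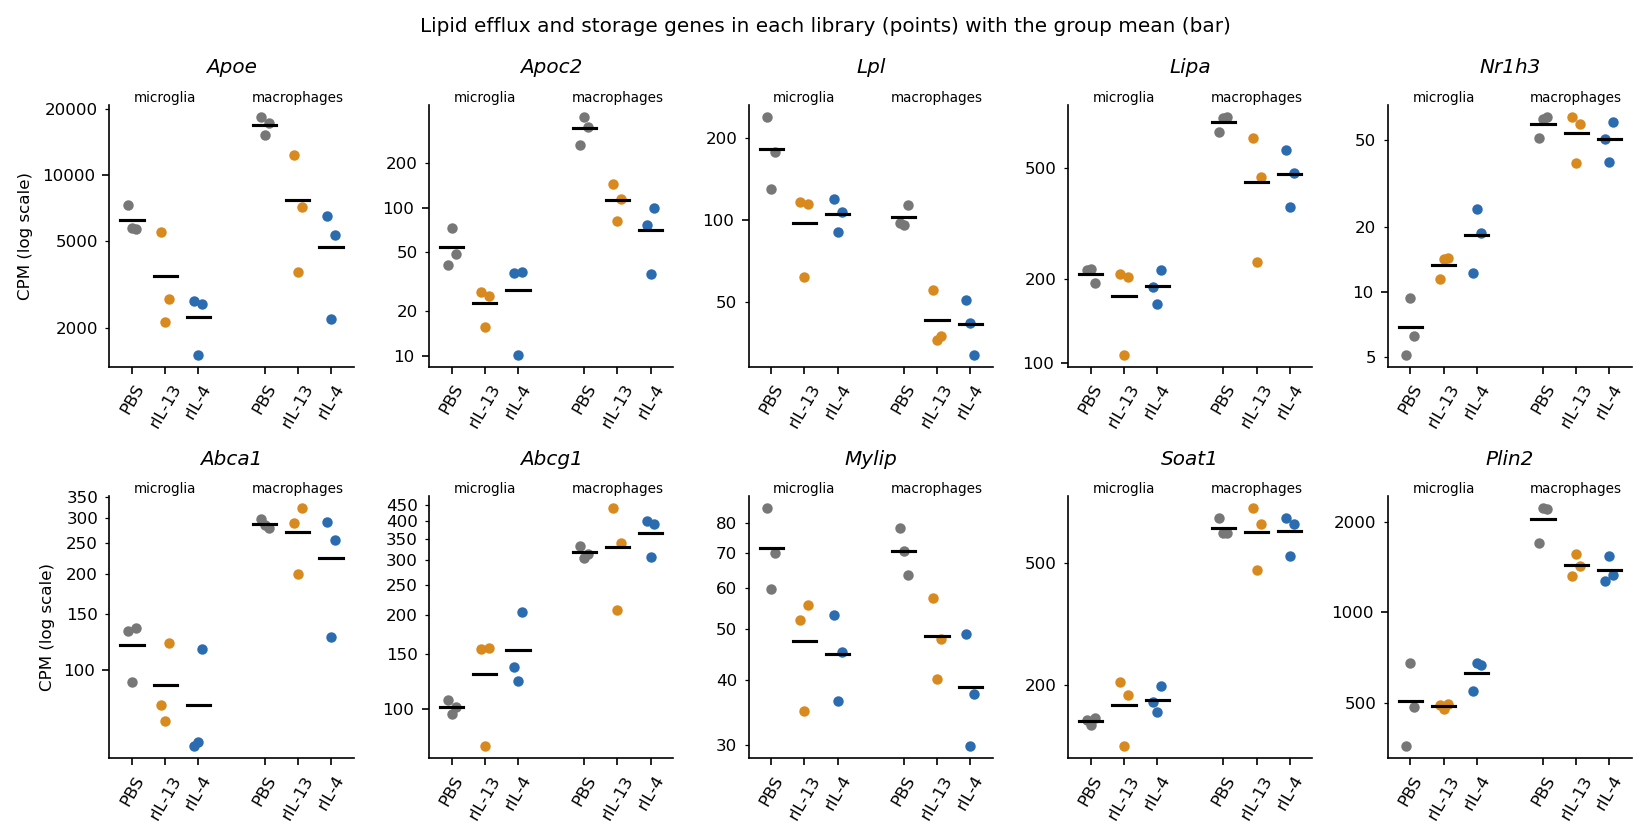
CPM of each of the 10 genes (vertical axis, log scale) in the 18 libraries, by treatment and cell type; points are libraries and bars are means of 3 mice. In macrophages, all rIL-4 values of Apoe and Apoc2 lie under all PBS values, whereas Soat1 values overlapped between these groups, and Lpl alone among the members had a higher mean in microglia than in macrophages after each treatment.

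Per kilobase of annotated exon, Apoe RNA exceeded that of every other member in all 6 groups. In PBS macrophages it was 7953 ± 780 CPM per kb (SD, n = 3), and its reads made up between 1.37% and 1.77% of all counts. Plin2 followed with 581 ± 83.8 CPM per kb and Apoc2 with 420 ± 90.1, and these overlapped. Next in order were Lipa with 108 ± 7.22, Soat1 with 66.5 ± 4.45, Abcg1 with 43.6 ± 1.97 and Abca1 with 27.7 ± 0.927 CPM per kb, and no neighbours among these overlapped. Nr1h3 with 23.5 ± 2.73 and Mylip with 21.9 ± 2.28 CPM per kb overlapped, and Lpl was lowest with 9.72 ± 0.903. In PBS microglia, Nr1h3 was lowest with 2.76 ± 0.873 CPM per kb, and Mylip, with 22.1 ± 3.98, overlapped with Lpl, which had 17.4 ± 5.25. After rIL-4, the share of Apoe was between 0.199% and 0.625% of macrophage counts, and its rank among all genes was between 13 and 39, where in PBS macrophages it was between 5 and 9.

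In macrophages, rIL-4 lowered 5 of the 10 genes against PBS and raised none. These were Apoc2, Apoe, Lpl, Mylip and Plin2, with fold differences from 1.48 for Plin2 to 4.87 for Apoc2. The other 5, Abca1, Abcg1, Nr1h3, Soat1 and Lipa, did not pass the threshold. All genes were tested with edgeR's quasi-likelihood test, and those with a Benjamini-Hochberg adjusted p under 0.05 were called differentially expressed (DE). Of all 13606 genes tested in macrophages, 14.0% were DE with rIL-4. The median log2 fold change was -0.59 over the 10 members and 0.02 over all genes tested. With rIL-13, 2 of the 10 were lower, Apoc2 and Lpl, where 4.19% of all genes were DE. The median over the members was then -0.52, and over all genes tested it was 0.0050. The libraries were apart from PBS for 6 members with either cytokine, where this held for 34.7% of all genes with rIL-4 and 24.5% with rIL-13.

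In microglia, 0 of the 10 genes were DE against PBS by edgeR with either cytokine. At an unadjusted p under 0.05 there were 4 with rIL-4 and 5 with rIL-13, where 16.4% and 7.76% of all genes were. DESeq2's Wald test called 2 with rIL-4, Apoe and Nr1h3, and 0 with rIL-13, and of all genes 9.53% and 2.54%. Of all 15566 genes tested in microglia, 2.22% were DE with rIL-4 and 0.366% with rIL-13. The median log2 fold change over the members was -0.37 with rIL-4, against -0.06 over all genes tested, and -0.34 with rIL-13, against -0.00082. For 7 members with rIL-4 and 5 with rIL-13, the cytokine libraries lay all above or all below the PBS libraries, as they did for 25.9% and 16.0% of all genes tested.

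**Figure D2:**
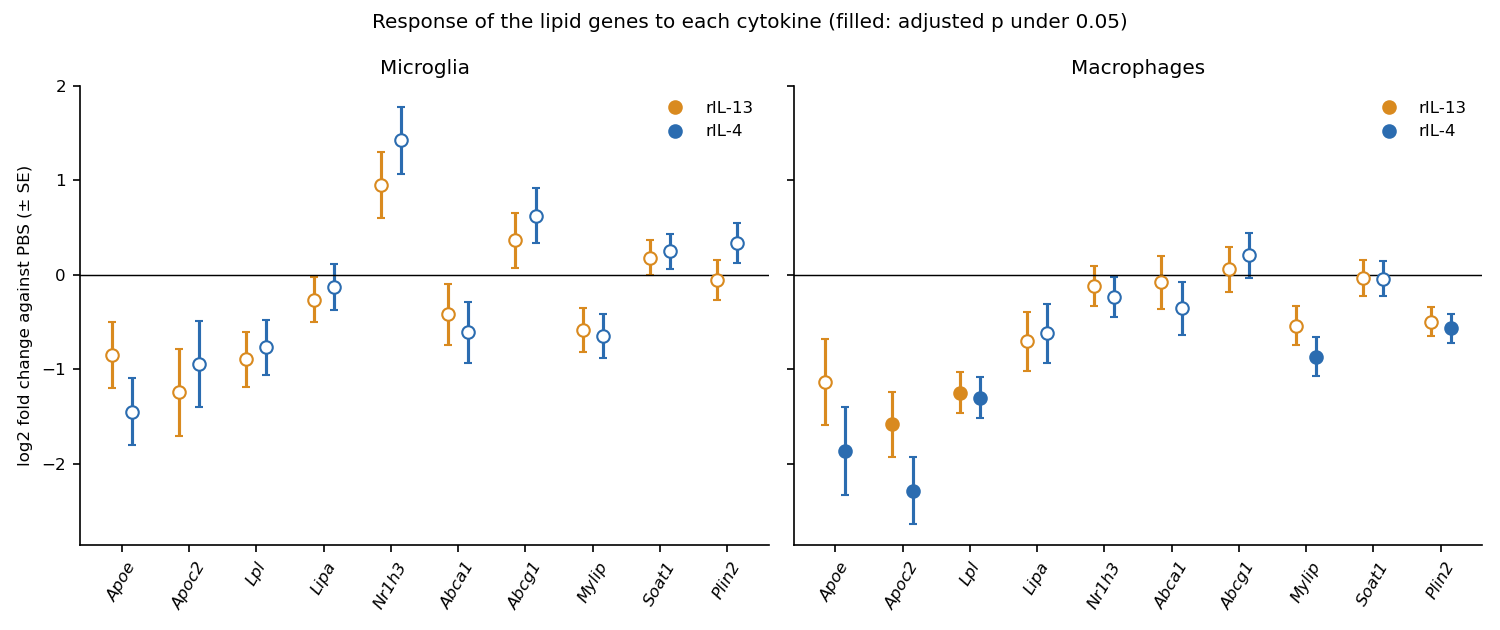
Log2 fold change against PBS (vertical axis, ± SE) of each gene in microglia (left) and macrophages (right), with rIL-13 and rIL-4 side by side; filled points have an adjusted p under 0.05 by edgeR. All 7 filled points are in macrophages and below 0, and the highest point of the plot is Nr1h3 in rIL-4 microglia, at 1.43.

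Apoe (ENSMUSG00000002985.16, GRCm38 chr7:19696109-19699188) encodes the apolipoprotein that carries lipids between cells of the nervous system. Macrophages of the PBS mice had 18465, 15188 and 17359 CPM of Apoe, the rIL-13 mice had 12311, 3620 and 7156 CPM, and the rIL-4 mice had 6467, 2202 and 5341 CPM. No library of either cytokine reached the lowest PBS library, and the 2 cytokines overlapped. Apoe fell 3.63-fold with rIL-4, with a log2 fold change of -1.86 (SE 0.46, adjusted p = 0.0240). With rIL-13, the log2 fold change of -1.14 (SE 0.45) had an adjusted p of 0.219, and it was between -1.65, without mouse 5, and -0.79, without mouse 6, when a mouse was left out. In microglia, the values were 7293, 5749 and 5673 CPM with PBS, 5483, 2141 and 2716 CPM with rIL-13, and 2661, 1509 and 2590 CPM with rIL-4. Again, every cytokine library was below every PBS library. The log2 fold changes in microglia were -1.45 with rIL-4 (SE 0.35, adjusted p = 0.0759) and -0.85 with rIL-13 (SE 0.35, adjusted p = 0.605), the latter -1.36 without mouse 5 and -0.59 without mouse 6. For rIL-4 in microglia, the adjusted p was 0.000968 with DESeq2, 0.0371 when a minimum of 10 counts was asked of every library and 0.0346 with only the 6 libraries compared. It was between 0.115 and 0.259 when a mouse was left out.

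Apoc2 (ENSMUSG00000002992.17, GRCm38 chr7:19671579-19677941), which encodes the cofactor of lipoprotein lipase, had the largest fold difference among the members in macrophages. It had 264, 410 and 351 CPM with PBS, 144, 80.9 and 115 CPM with rIL-13, and 75.8, 35.9 and 98.8 CPM with rIL-4. The cytokine groups both lay under PBS and overlapped with each other. Apoc2 fell 4.87-fold with rIL-4 (log2 fold change -2.28, SE 0.35, adjusted p = 0.00229) and 3.00-fold with rIL-13 (log2 fold change -1.58, SE 0.34, adjusted p = 0.0316). In microglia, PBS libraries had 40.7, 72.9 and 48.5 CPM, rIL-13 libraries 27.1, 15.7 and 25.4 CPM, and rIL-4 libraries 36.4, 10.2 and 36.8 CPM. They did not overlap with PBS either, and the log2 fold changes were -0.94 with rIL-4 (SE 0.46, adjusted p = 0.350) and -1.24 with rIL-13 (SE 0.46, adjusted p = 0.546). The value with rIL-4 was -0.54 without mouse 9. Apoc2 shares 646 exonic bases with Gm44805, a read-through gene, whose counts were at most 37 in a library and at most 1.07% of those of Apoc2.

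Lpl (ENSMUSG00000015568.16, GRCm38 chr8:68880491-68907448) fell in macrophages with both cytokines. PBS macrophages had 97.2, 95.7 and 113 CPM, rIL-13 macrophages had 55.1, 36.0 and 37.3 CPM, and rIL-4 macrophages had 50.4, 41.7 and 31.8 CPM. The lowest PBS library was thus above every cytokine library. The fall was 2.46-fold with rIL-4 (log2 fold change -1.30, SE 0.21, adjusted p = 0.00323) and 2.37-fold with rIL-13 (log2 fold change -1.25, SE 0.21, adjusted p = 0.0101). Lpl had a higher level in microglia than in macrophages. Apoe, Apoc2 and Plin2, which also fell in rIL-4 macrophages, had lower levels in microglia than in macrophages of the PBS mice. The sum of microglia markers in macrophages was lower with both cytokines, as given above, and its part in these falls was not tested. In microglia, Lpl had 239, 129 and 177 CPM with PBS, 116, 61.7 and 114 CPM with rIL-13, and 119, 89.7 and 107 CPM with rIL-4. These groups did not overlap with PBS, but the log2 fold changes of -0.77 with rIL-4 (SE 0.29, adjusted p = 0.226) and -0.89 with rIL-13 (SE 0.29, adjusted p = 0.438) did not pass the threshold. Lipa (ENSMUSG00000024781.15, chr19:34492318-34527474), the lysosomal lipase gene, had between 674 and 764 CPM in PBS macrophages, 231 to 640 CPM with rIL-13 and 363 to 579 CPM with rIL-4. Neither cytokine group overlapped with PBS, and the log2 fold changes of -0.62 with rIL-4 (SE 0.31, adjusted p = 0.230) and -0.70 with rIL-13 (SE 0.31, adjusted p = 0.273) were not DE. The value with rIL-13 was -0.39 without mouse 6. For rIL-4 the adjusted p was 0.0492 with only the 6 libraries compared. In microglia, Lipa was between 107 and 217 CPM in all 9 libraries, and the cytokine groups overlapped with PBS.

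Mylip (ENSMUSG00000038175.10, GRCm38 chr13:45389742-45412022) had 78.1, 70.4 and 63.4 CPM in PBS macrophages, 57.4, 40.1 and 47.9 CPM with rIL-13, and 48.8, 29.8 and 37.6 CPM with rIL-4. It fell 1.82-fold with rIL-4 (log2 fold change -0.86, SE 0.20, adjusted p = 0.0192). With rIL-13 the groups did not overlap either, and the log2 fold change was -0.54 (SE 0.20, adjusted p = 0.194). Microglia had 85.3, 59.7 and 69.8 CPM with PBS, 52.0, 34.9 and 55.6 CPM with rIL-13, and 53.1, 36.4 and 45.2 CPM with rIL-4. All cytokine libraries were again below PBS. In microglia, the log2 fold changes of Mylip were -0.65 with rIL-4 (SE 0.23, adjusted p = 0.209) and -0.58 with rIL-13 (SE 0.23, adjusted p = 0.593).

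Nr1h3 (ENSMUSG00000002108.10, GRCm38 chr2:91184061-91202834), the LXR alpha gene, stood apart from the members that fell. PBS microglia had 5.14, 9.38 and 6.30 CPM, rIL-13 microglia had 11.4, 14.3 and 14.3 CPM, and rIL-4 microglia had 12.2, 24.1 and 18.6 CPM. Every cytokine library was above every PBS library. The log2 fold change was 1.43 with rIL-4 (SE 0.35, adjusted p = 0.0826) and 0.95 with rIL-13 (SE 0.35, adjusted p = 0.546). For rIL-4, the adjusted p was 0.00234 with DESeq2 and 0.00651 in a model of all 18 libraries, and between 0.0590 and 0.301 when a mouse was left out. In macrophages, Nr1h3 had 51.2, 62.4 and 63.8 CPM with PBS, 64.0, 39.1 and 59.2 CPM with rIL-13, and 50.5, 39.8 and 60.7 CPM with rIL-4. There the groups overlapped, and the log2 fold changes of -0.23 with rIL-4 and -0.12 with rIL-13 were about as large as their SEs of 0.21 or smaller. Nr1h3 thus had a higher level in macrophages than in microglia. The sum of monocyte-derived macrophage markers in microglia was higher with rIL-4 than with PBS, as given above. The part of that sum in the microglial values of Nr1h3 was not tested.

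The efflux transporters were not DE in any comparison with PBS. Abca1 (ENSMUSG00000015243.4, GRCm38 chr4:53030787-53159895) had between 280 and 298 CPM in PBS macrophages, 200 and 322 CPM with rIL-13, and 126 and 291 CPM with rIL-4. Its log2 fold changes in macrophages were -0.35 with rIL-4 (SE 0.28, adjusted p = 0.465) and -0.08 with rIL-13 (SE 0.28, adjusted p = 0.928). The value with rIL-4 was -0.59 without mouse 8 and -0.08 without mouse 9. In microglia, Abca1 had 133, 91.4 and 135 CPM with PBS, 77.4, 68.8 and 122 CPM with rIL-13, and 57.3, 59.4 and 116 CPM with rIL-4, and these overlapped. Abcg1 (ENSMUSG00000024030.6, chr17:31057675-31117988) had 106, 95.7 and 101 CPM in PBS microglia and 136, 123 and 204 CPM in rIL-4 microglia. Those libraries did not overlap, with a log2 fold change of 0.63 (SE 0.29, adjusted p = 0.323), or 0.38 without mouse 10. With rIL-13, microglia had 156, 75.5 and 157 CPM of Abcg1 and overlapped with PBS. In macrophages, Abcg1 was between 305 and 334 CPM with PBS, 208 and 441 CPM with rIL-13, and 306 and 402 CPM with rIL-4. Abca1, Abcg1 and Nr1h3 varied little among PBS macrophages, where the SD was 3.34%, 4.52% and 11.6% of the mean, and more among rIL-4 macrophages, where it was 38.7%, 14.4% and 20.8%.

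Of the storage genes, Plin2 was DE in rIL-4 macrophages and Soat1 in no comparison with PBS, and the difference between them was not tested. Plin2 (ENSMUSG00000028494.12, GRCm38 chr4:86648386-86670060) had 1701, 2220 and 2200 CPM in PBS macrophages, 1322, 1566 and 1426 CPM with rIL-13, and 1268, 1540 and 1330 CPM with rIL-4. All cytokine libraries were below all PBS libraries. Plin2 fell 1.48-fold with rIL-4 (log2 fold change -0.56, SE 0.15, adjusted p = 0.0352), and with rIL-13 the log2 fold change was -0.50 (SE 0.15, adjusted p = 0.115; 0.0460 with DESeq2). In microglia, Plin2 had 359, 678 and 487 CPM with PBS, 491, 477 and 497 CPM with rIL-13, and 548, 679 and 667 CPM with rIL-4, so that neither cytokine stood apart from PBS. Soat1 (ENSMUSG00000026600.12, GRCm38 chr1:156424525-156474331) was between 624 and 701 CPM in PBS macrophages, 474 and 753 CPM with rIL-13, and 528 and 702 CPM with rIL-4. Its log2 fold changes in macrophages, -0.04 for both cytokines, were well under their SE of 0.19. In microglia, Soat1 had 155, 149 and 157 CPM with PBS and 177, 164 and 198 CPM with rIL-4, which did not overlap, with a log2 fold change of 0.25 (SE 0.19, adjusted p = 0.604).

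Of the calls in macrophages, those of Apoc2 and Lpl with rIL-4 held whichever mouse was left out, with adjusted p-values of at most 0.00966 and 0.0159. For rIL-4, the call of Apoe was lost without mouse 1 (adjusted p = 0.0633), mouse 2 (0.0507), mouse 3 (0.0634) or mouse 10 (0.0698), that of Mylip without mouse 1 (0.0604), mouse 2 (0.0536) or mouse 10 (0.0756), and that of Plin2 without mouse 2 (0.122), mouse 3 (0.151), mouse 8 (0.107) or mouse 10 (0.124). With rIL-13, Lpl was lost without mouse 3 (0.0503) or mouse 7 (0.0501), and Apoc2 without mouse 1 (0.0507), mouse 2 (0.111), mouse 3 (0.0988), mouse 6 (0.0731) or mouse 7 (0.0953). Directions were kept in each of these fits.

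Compared directly, rIL-4 and rIL-13 separated none of the members. In microglia and in macrophages, 0 of 10 were DE by edgeR and by DESeq2, and 0 had an unadjusted p under 0.05. Of all genes tested, 0.0385% were DE by edgeR in microglia and 0.250% in macrophages, 4.79% and 2.63% by DESeq2, and 11.4% and 11.1% had an unadjusted p under 0.05. Log2 fold changes of rIL-4 against rIL-13 in macrophages were between -0.73 for Apoe (SE 0.45, adjusted p = 0.609) and 0.15 for Abcg1 (SE 0.24, adjusted p = 0.886). The Apoe value was between -1.07, without mouse 6, and -0.23, without mouse 5, and that of Abcg1 between -0.11 and 0.40, when a mouse was left out. The libraries overlapped for every member in macrophages, where 14.4% of all genes did not. In microglia, Plin2 alone of the members did not overlap, against 12.3% of all genes, with a log2 fold change of 0.39 (SE 0.21, adjusted p = 0.553).

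Microglia and macrophages of the same PBS mice differed in 9 of the 10 genes, and 40.9% of 14715 genes tested were DE between them. Of the 9, 8 were lower in microglia and Lpl was higher. The receptor gene Nr1h3 differed by the largest fold, being 8.69-fold lower in microglia (log2 fold change -3.12, SE 0.24, adjusted p = 2.91e-05). Apoc2 was 6.44-fold lower (log2 fold change -2.69, SE 0.24, adjusted p = 6.09e-05). Among the storage genes, Soat1 was 4.34-fold lower (log2 fold change -2.12, SE 0.11, adjusted p = 5.08e-06) and Plin2 4.10-fold lower (log2 fold change -2.04, SE 0.23, adjusted p = 0.000177). Lipa was 3.57-fold lower (log2 fold change -1.84, SE 0.11, adjusted p = 8.03e-06). For the transporters, Abcg1 was 3.22-fold lower (log2 fold change -1.69, SE 0.11, adjusted p = 1.32e-05) and Abca1 2.46-fold lower (log2 fold change -1.30, SE 0.16, adjusted p = 0.000343), and Apoe was 2.80-fold lower (adjusted p = 0.000101). Lpl was 1.74-fold higher in microglia (log2 fold change 0.80, SE 0.21, adjusted p = 0.0141), a call lost without mouse 1 (adjusted p = 0.0993) or mouse 3 (0.0675). Mylip had a log2 fold change of -0.02 (SE 0.16, adjusted p = 0.950).

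**Figure D3:**
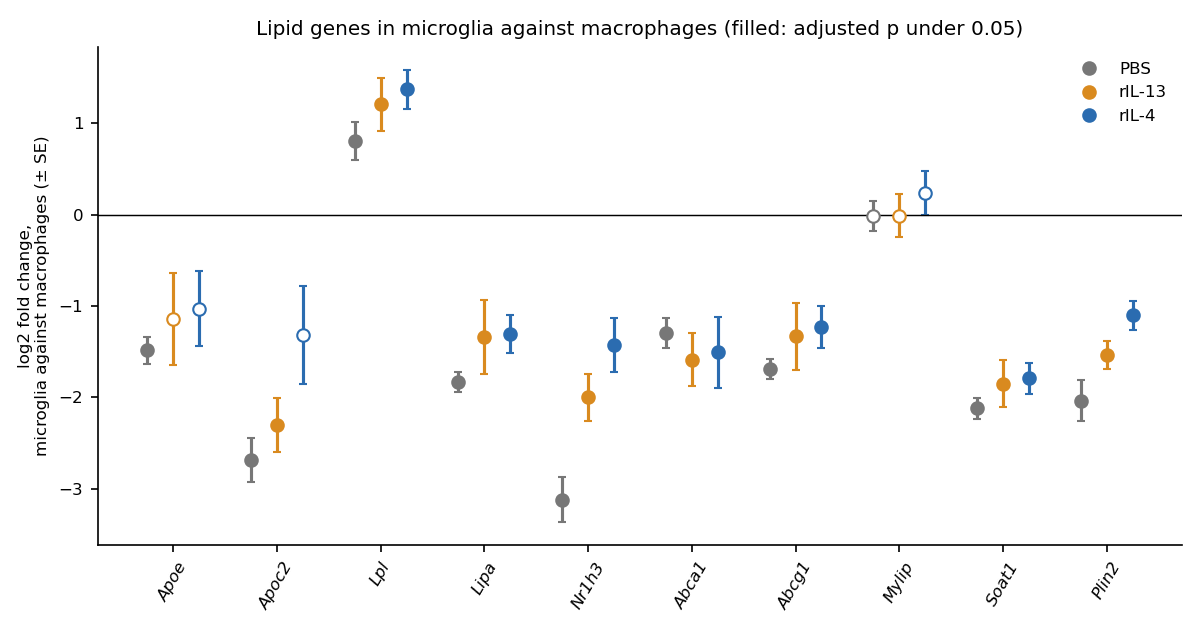
Log2 fold change of microglia against macrophages (vertical axis, ± SE) for each gene after PBS, rIL-13 and rIL-4; filled points have an adjusted p under 0.05 by edgeR, and values above 0 are higher in microglia. Lpl is above 0 after each treatment, Mylip lies between -0.02 and 0.24, and Nr1h3 moves from -3.12 after PBS to -1.43 after rIL-4.

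After rIL-13, 8 of the 10 members differed between the cell types, where 26.7% of all genes tested were DE, and after rIL-4 7 did, where 23.4% were. Nr1h3 was lower in microglia after rIL-13 (log2 fold change -2.00, SE 0.25, adjusted p = 0.00153) and 2.69-fold lower after rIL-4 (log2 fold change -1.43, SE 0.30, adjusted p = 0.0114). Plin2 was 2.91-fold lower after rIL-13 (adjusted p = 0.000658) and 2.15-fold lower after rIL-4 (adjusted p = 0.00252), and Soat1 3.61-fold (adjusted p = 0.00224) and 3.46-fold lower (adjusted p = 0.000396). Apoc2 was 4.93-fold lower after rIL-13 (log2 fold change -2.30, SE 0.30, adjusted p = 0.00167). After rIL-4 its log2 fold change of -1.31 (SE 0.54) had an adjusted p of 0.129, and 0.00694 with the mouse as a block, which compares the 2 cell types within each animal. For Apoe, the log2 fold changes were -1.14 (SE 0.50, adjusted p = 0.143) after rIL-13 and -1.03 (SE 0.41, adjusted p = 0.117) after rIL-4, and with the block the adjusted p-values were 0.00624 and 0.0141. Apoe was lower in microglia than in macrophages of the same mouse in all 9 mice.

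Abca1, Abcg1 and Lipa were lower in microglia, and Lpl higher, after both cytokines as after PBS. Abca1 was 3.00-fold lower in microglia after rIL-13 (log2 fold change -1.59, SE 0.29, adjusted p = 0.00607) and 2.85-fold lower after rIL-4 (-1.51, SE 0.39, adjusted p = 0.0264). For Abcg1 the log2 fold changes were -1.33 (SE 0.36, adjusted p = 0.0315) and -1.23 (SE 0.23, adjusted p = 0.00722), and for Lipa -1.34 (SE 0.41, adjusted p = 0.0458) and -1.31 (SE 0.21, adjusted p = 0.00380). Lpl was 2.30-fold higher in microglia after rIL-13 (log2 fold change 1.20, SE 0.29, adjusted p = 0.0198) and 2.59-fold higher after rIL-4 (1.37, SE 0.21, adjusted p = 0.00348). Mylip overlapped between the cell types in each case, with log2 fold changes of -0.01 (SE 0.24, adjusted p = 0.981) after rIL-13 and 0.24 (SE 0.24, adjusted p = 0.566) after rIL-4. After rIL-13, leaving out mouse 5 ended the calls of Abca1 (adjusted p = 0.0631), Abcg1 (0.125), Lipa (0.164) and Lpl (0.0653), and leaving out mouse 7 those of Soat1 (0.0517), Abcg1 (0.155), Lipa (0.208) and Lpl (0.204). After rIL-4, leaving out mouse 8 ended those of Abca1 (0.212), Abcg1 (0.0782) and Nr1h3 (0.0678), leaving out mouse 10 that of Nr1h3 (0.1000), and leaving out mouse 9 added Apoe (0.0243) and Apoc2 (0.0209).

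Whether the cell types differed in their response was tested as an interaction over all 18 libraries. By edgeR, 0 of the 10 members passed for rIL-4, where 0.992% of 16535 genes did, and 0 for rIL-13, where 0.0242% did. At an unadjusted p under 0.05 there were 3 members for rIL-4 and 1 for rIL-13, where 12.4% and 5.83% of all genes were. DESeq2 called 2 for rIL-4, Nr1h3 and Plin2, and 0 for rIL-13, and of all genes 4.68% and 1.10%. Nr1h3 had the largest difference with rIL-4, a log2 response 1.63 higher in microglia than in macrophages (SE 0.39, adjusted p = 0.0586). This call depended on the fit, with adjusted p-values of 0.0497 with DESeq2's size factors, 0.00253 with DESeq2, 0.0397 with all genes with any count, 0.0416 when a minimum of 10 counts was asked of every library and 0.0861 with the mouse as a block. Plin2 differed by 0.88 (SE 0.27, adjusted p = 0.153; 0.0404 with the block and 0.0273 with DESeq2), and Apoc2 by 1.32 (SE 0.61, adjusted p = 0.384; 0.0236 with the block). For the other 7 members, the differences with rIL-4 were between -0.27 for Abca1 and 0.51 for Lpl. A difference in response was therefore not shown for Apoe, Lpl or Mylip, for which log2 values were 0.40 (SE 0.61), 0.51 (SE 0.37) and 0.19 (SE 0.32).

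Apoe and Apoc2 are neighbours on chromosome 7, where the apolipoprotein genes Apoc1 and Apoc4 lie between them, and the genes within 50 kb of Apoe were looked at after the values of both were known. Apoc1 was low, with between 3.56 and 4.25 CPM in PBS macrophages and between 0.600 and 1.05 CPM in rIL-4 macrophages, and it fell by 2.15 on the log2 scale (SE 0.36, adjusted p = 0.00351). In microglia, Apoc1 had between 8.32 and 9.03 CPM with PBS and between 0.951 and 1.45 CPM with rIL-4, which did not overlap, with a log2 fold change of -2.80 (SE 0.73, adjusted p = 0.0976). Apoc4 was low, with at most 111 counts in a library, and had a log2 fold change of -1.92 (SE 0.88, adjusted p = 0.186) in rIL-4 macrophages. In rIL-13 macrophages, where Apoc2 fell, the log2 fold changes were -0.22 for Apoc1 (SE 0.34, adjusted p = 0.804) and -0.23 for Apoc4 (SE 0.83, adjusted p = 0.928), and both overlapped with PBS. The genes that flank this cluster were not DE with either cytokine in either cell type. In rIL-4 macrophages, the log2 fold changes were 0.44 for Tomm40 (SE 0.19, adjusted p = 0.172), which starts 16.2 kb upstream of Apoe, -0.44 for Nectin2 (SE 0.27, adjusted p = 0.324), and -0.23 for Clptm1 (SE 0.17, adjusted p = 0.434), which lies beyond Apoc2.

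**Figure D4:**
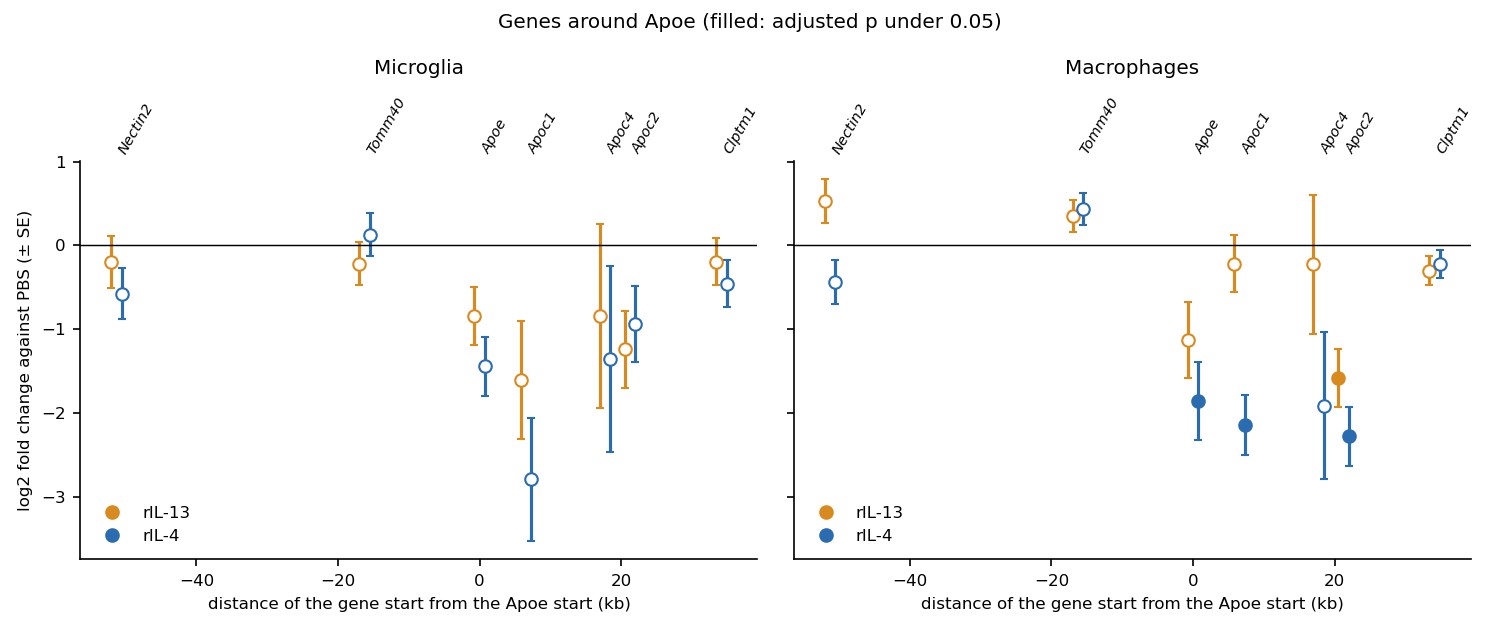
Log2 fold change against PBS (vertical axis, ± SE) of the genes tested within 50 kb of Apoe, except Gm44805, which is not drawn. Genes are placed by the distance of their start from that of Apoe in kb (horizontal axis, positive values downstream, cytokines offset slightly sideways). Filled points have an adjusted p under 0.05 by edgeR. In rIL-4 macrophages, Apoe, Apoc1 and Apoc2 are filled and between -1.86 and -2.28, and the flanking Tomm40, Nectin2 and Clptm1 lie between -0.44 and 0.44.

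Other genes of these pathways gave a setting for the members. Among 15 LXR partners and other LXR targets, 2 were DE in rIL-4 macrophages, a share near the 14.0% of all genes. DESeq2 called 4 of them, against 16.0% of all genes, and 5 had an unadjusted p under 0.05, against 27.9%. Both were lower: Apoc1, and Fads1, a fatty acid desaturase gene, with a log2 fold change of -1.14 (SE 0.19, adjusted p = 0.00305). Fads1 was also the 1 of these 15 that was DE in rIL-4 microglia, with -0.97 (SE 0.15, adjusted p = 0.0149), against 2.22% of all genes. DESeq2 called 2 of the 15 there, against 9.53%, and 4 had an unadjusted p under 0.05, against 16.4%. With rIL-13 there were 0 in either cell type by edgeR (1 of 15 in microglia and 2 in macrophages at an unadjusted p under 0.05, where 7.76% and 17.9% of all genes were, and 0 and 1 with DESeq2, where 2.54% and 7.55% were). The next in order of p in rIL-4 macrophages had positive values, 1.04 for Scd2 (adjusted p = 0.0680), another desaturase gene, and 0.96 for the LXR partner Rxra (adjusted p = 0.0830). The median log2 fold change of this list in rIL-4 macrophages was -0.30. Among 13 tested genes of lipoprotein and cholesterol uptake, 2 rose and 2 fell in rIL-4 macrophages, where 14.0% of all genes were DE. Olr1, which encodes a receptor for oxidised LDL, rose from 29.6 ± 4.32 to 108 ± 19.0 CPM (SD, n = 3; log2 fold change 1.86, adjusted p = 0.000499), and Lrp8, an apoE receptor gene, had 1.05 (adjusted p = 0.0300). Msr1, a scavenger receptor gene, fell from 542 ± 69.4 to 190 ± 30.4 CPM (log2 fold change -1.51, adjusted p = 0.000496), and Scarb1, the HDL receptor gene, had -0.47 (adjusted p = 0.0373). With rIL-13 in macrophages, Olr1 (1.35, adjusted p = 0.00726) and Msr1 (-0.76, adjusted p = 0.0374) were DE in the same directions, 2 of 13 against 4.19% of all genes.

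In rIL-4 microglia, 2 of 14 uptake genes were DE, with Olr1 higher, from 7.79 ± 1.32 to 39.3 ± 13.3 CPM (SD, n = 3; log2 fold change 2.36, adjusted p = 0.00868), and Scarb2, a lysosomal membrane protein gene, lower (-0.64, adjusted p = 0.0462), against 2.22% of all genes. DESeq2 called 3 of these 14, against 9.53%, and 5 had an unadjusted p under 0.05, against 16.4%. Of the lipid droplet genes, 1 of 14 tested was DE in rIL-4 macrophages, below the 14.0% of all genes. It was Plin3, another droplet coat gene, which rose by 0.51 on the log2 scale (adjusted p = 0.0209). In microglia, 0 of 15 droplet genes were DE by edgeR with either cytokine, with 3 at an unadjusted p under 0.05 and 2 by DESeq2 for rIL-4, where 16.4% and 9.53% of all genes were, and 1 and 0 for rIL-13, where 7.76% and 2.54% were. Of the genes of LPL maturation and control, 0 of 6 were DE in macrophages by edgeR or DESeq2, with 2 at an unadjusted p under 0.05 for rIL-4 and 3 for rIL-13, against 27.9% and 17.9% of all genes. In rIL-4 microglia 1 of 6 was DE, against 2.22% of all genes, the hepatic lipase gene Lipc, at 0.571 ± 0.243 CPM with PBS and 7.93 ± 1.71 CPM with rIL-4 (adjusted p = 0.0356). Among PPAR genes, Pparg, the PPAR gamma gene, rose in rIL-4 macrophages from 12.2 ± 1.04 to 39.0 ± 4.62 CPM (log2 fold change 1.67, adjusted p = 0.00528), as did the coactivator gene Ppargc1b (1.94, adjusted p = 0.00464), and these were 2 of 6 tested, against 14.0% of all genes. With rIL-13 in macrophages, edgeR called 0 of 6 and DESeq2 called 2, with 2 at an unadjusted p under 0.05, against 4.19%, 7.55% and 17.9% of all genes. In rIL-4 microglia, Fabp5, a fatty acid binding protein gene, rose from 245 ± 64.3 to 639 ± 159 CPM (1.40, adjusted p = 0.0177). Pdk4, a kinase gene of the switch to fatty acid oxidation, was at 4.27 ± 1.79 CPM with PBS and at 0.00906 ± 0.0157 CPM with rIL-4 there (adjusted p = 0.00754), and these were 2 of 7 tested, against 2.22% of all genes.

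Over the 6 group means, the genes whose log2 CPM was most like that of Apoe were Fnbp1, Rala and Zbtb2, with Pearson's r of 0.998, 0.996 and 0.991. For Abca1 they were Gm4518, Kcnk13 and Trmt112 with 0.999, 0.998 and 0.997, and Gm4518 was barely detected, with a highest group mean of -1.38 on the log2 CPM scale. For Nr1h3 they were Stx4a, Tnfsf13 and Ube2a with 0.999, 0.998 and 0.997. Each was chosen as the highest of 16535 genes over only 6 points that come from the same libraries, so that these values describe the pattern and carry no test.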

How the data were processed

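RNA of microglia and macrophages sorted from 9 mice was sequenced after SMART-seq2, which has no molecular identifiers and keeps no strand, from 0.12 to 10 ng of input. The authors mapped reads to GRCm38 with STAR 2.5.3a and deposited expected counts from RSEM 1.3.0, rounded and not normalized. Reads shared between genes are split by RSEM, so overlapping genes can exchange counts. The members and gene lists were chosen with earlier results of these data known. Counts were tested with edgeR 4.0.16 (TMM, filterByExpr, quasi-likelihood test) in R 4.3.3, with Benjamini-Hochberg adjustment over all genes tested and a threshold of 0.05. The fits held 9 libraries for comparisons within a cell type, 6 between cell types within a treatment, and 18 for the interaction. SEs were derived from the F statistic. Levels are CPM with TMM over 18 libraries. Positions and exon lengths are GENCODE M21, of which 53274 of 53465 gene IDs matched, Abcg1 and Lipa with another version. CPM per kb divides by all annotated exonic bases. All members were described. Alternatives were DESeq2 1.42.0 (Wald test, and size factors), other filters, other sets of libraries and leaving out each mouse. The test was tried on simulated data first. Both cell types of a number come from the same mouse, by the labels, so that the mouse was added as a block in an alternative. Deviations from group means of same-numbered libraries correlated by 0.0177 to 0.0935 over 16535 genes. With 3 mice a group and 1 library per mouse and cell type, differences between mice and noise from sorting and amplification cannot be told apart.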

Additional observations from a re-analysis of the deposited data

Results flagged for a closer look

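With the mouse as a block, the response to rIL-4 differed between cell types for Apoc2, by 1.25 on the log2 scale (adjusted p = 0.0236), and for Plin2, by 0.91 (adjusted p = 0.0404, edgeR). Both were higher in microglia against macrophages, relative to PBS, and neither passed by edgeR without the block. DESeq2, also without the block, called Plin2 (adjusted p = 0.0273).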

How the results depend on the processing

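The number of members called depended on the fit. For rIL-4 in microglia, it was 0 as reported, 2 with DESeq2's Wald test, and 1 with at least 10 counts in every library, with only the 6 libraries compared and in a model of all 18 libraries. Over all genes, the calls were 345, 1479, 386, 418 and 949 in this order. In macrophages, the number of members called was between 2 and 5 for rIL-4 when a mouse was left out, and for rIL-13 between 0 and 2 when a mouse was left out and 1 with all 18 libraries. Calls over all genes fell as well when a mouse was left out. They went from 1900 to between 1041 and 1614 for rIL-4, and from 570 to between 199 and 529 for rIL-13, with 257 in the model of 18 libraries. Between the cell types, leaving out a mouse gave 4 to 8 members after rIL-13 and 4 to 9 after rIL-4. The same fits called between 1197 and 3606 of all genes after rIL-13, where 3710 were called as reported. After rIL-4 they called between 1798 and 2548, where 3174 were called as reported. For the interaction with rIL-4, the number of members called was 0 as reported, 2 with DESeq2, 2 with the replicate block, and 1 each with DESeq2's size factors, all genes with any count and at least 10 counts in every library. Over all genes, the calls were 164, 777, 188, 180, 170 and 142 in this order. Over the 70 member results that were DE here or under an alternative, did not overlap between groups or are printed in the text, 743 values under alternatives held 34 lost calls, 20 gained calls and 14 turned directions, and the cause of these changes was not tested. When a mouse was left out, log2 fold changes in macrophages with rIL-13 were -0.24 to 0.11 for Abca1, -0.26 to 0.075 for Nr1h3 and -0.18 to 0.14 for Soat1, each turning without mouse 6 and Soat1 also without mouse 1. Soat1 with rIL-4 was -0.12 to 0.064 (turned without mouse 1 or 9), Abcg1 for rIL-4 against rIL-13 was -0.11 to 0.40 (mouse 6), and Abca1 for the interaction with rIL-4 was -0.57 to 0.24 (mouse 8). Mylip between the cell types was -0.091 to 0.055 after PBS (mouse 2) and -0.14 to 0.041 after rIL-13 (mouse 5 or 6), 0.055 and 0.061 with at least 10 counts in every library, and 0.019 after PBS in the model of 18 libraries. Over all 110 member results, 41 of 1210 values turned, 0 of them called, in 22 results with log2 fold changes of at most 0.28 in size. Apart from the changes given with the results, the block changed no other call. Fits that left out a mouse had fewer libraries. With totals of at least 35961305 counts, the least counted member had at least 210 counts in each library.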
